A study of Mus musculus with 6 samples.

Results

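The genes described here make, assemble and carry secretory IgA, or mark and sustain the plasma cells that make it. They are Pigr, Jchain, Mzb1, Derl3, Xbp1, Prdm1, Sdc1, Tnfrsf17, Tnfsf13 and Tnfsf13b, 10 of the 55487 genes in the deposited expression table, and were found by symbol. All 10 were above the expression filter that left 15563 genes to be tested. RNA-seq of whole small intestine was available from 3 wild-type libraries (WT) and 3 libraries of the Lgr5-2A-DTR genotype (DTR). In DTR mice the receptor for diphtheria toxin is expressed from the locus of Lgr5, the gene that marks crypt base stem cells, so that toxin removes Lgr5-expressing cells. Mice of both genotypes were C57BL/6, older than 8 weeks, and received 20 µg/kg of diphtheria toxin daily over 4 days, with tissue taken 6 h after the last dose. There was no group without toxin, so the comparison is of genotypes under toxin.

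In the gut wall, plasma cells of the lamina propria secrete IgA as a polymer joined by the J chain. The polymeric immunoglobulin receptor, made by epithelial cells, binds that polymer at the basal side, carries it through the cell and releases it into the lumen. Differentiation to a plasma cell needs the transcription factors BLIMP1 (Prdm1) and XBP1, the second of which enlarges the endoplasmic reticulum (ER), and the cells persist on signals from the ligands APRIL (Tnfsf13) and BAFF (Tnfsf13b). Several of these genes are also used outside plasma cells, among them Xbp1, Sdc1 and Prdm1 in the intestinal epithelium, and Xbp1 and Derl3 in pancreatic acinar cells.

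The libraries held 61404574 to 76596766 reads in genes. Lgr5 had 229 to 315 reads in the WT libraries and 0 to 34 in the DTR libraries. The genotypes also differed in sex-linked transcripts, with 16 to 38 Xist reads in the WT libraries against 22432 to 24279 in the DTR libraries, and 0 reads of Ddx3y, Eif2s3y, Kdm5d and Uty in every DTR library. Genotype and this sex pattern cannot be told apart in any result here. Pancreatic acinar transcripts varied in both groups, with summed levels of 15 tested and 1 untested marker genes of 20350 to 57230 RPKM in the WT and 13830 to 43240 RPKM in the DTR libraries. Whether the libraries of a group come from different mice is not said outright in the labels, and the p-values below cover the spread between libraries, which may be partly or wholly technical.

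Mean levels of Jchain, Mzb1, Derl3 and Tnfrsf17, genes of antibody-secreting cells, were 3.32-fold to 5.70-fold lower in the DTR libraries. Of these, Derl3 is also transcribed by pancreatic acinar cells, and Mzb1 and Tnfrsf17 had 3 and 2 reads in DTR replicate 2. For Xbp1, Prdm1 and Sdc1, which the epithelium shares, the means differed by less than the SD of the DTR libraries. All 3 DTR libraries were below all 3 WT libraries for 6 genes, Pigr, Jchain, Mzb1, Derl3, Tnfrsf17 and Tnfsf13, an arrangement found in 22.6% of all tested genes. Tnfsf13b was the 1 gene with every DTR library above every WT library, an arrangement found in 25.1% of all tested genes, and the groups overlapped for Xbp1, Prdm1 and Sdc1. Taken in either direction, 47.7% of all tested genes had groups that did not overlap. With limma and Benjamini-Hochberg adjustment over all tested genes, 2 of the 10 passed an adjusted p of 0.05, Derl3 and Tnfsf13, and both fell; 8.74% of all tested genes fell and 9.54% rose. With 1 library left out, 0 of the 10 passed without WT replicate 1, 2 or 3 or DTR replicate 2 or 3, and 3 passed without DTR replicate 1. Of all 15563 tested genes, 152, 157 and 207 passed without WT replicate 1, 2 and 3. The numbers were 5605, 2405 and 1010 without DTR replicate 1, 2 and 3. The counts of the 10 genes are therefore to be read beside this change over all genes. The median log2 change of the 10 genes was -0.77, beside 0.03 for all tested genes.

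**Figure D1:**
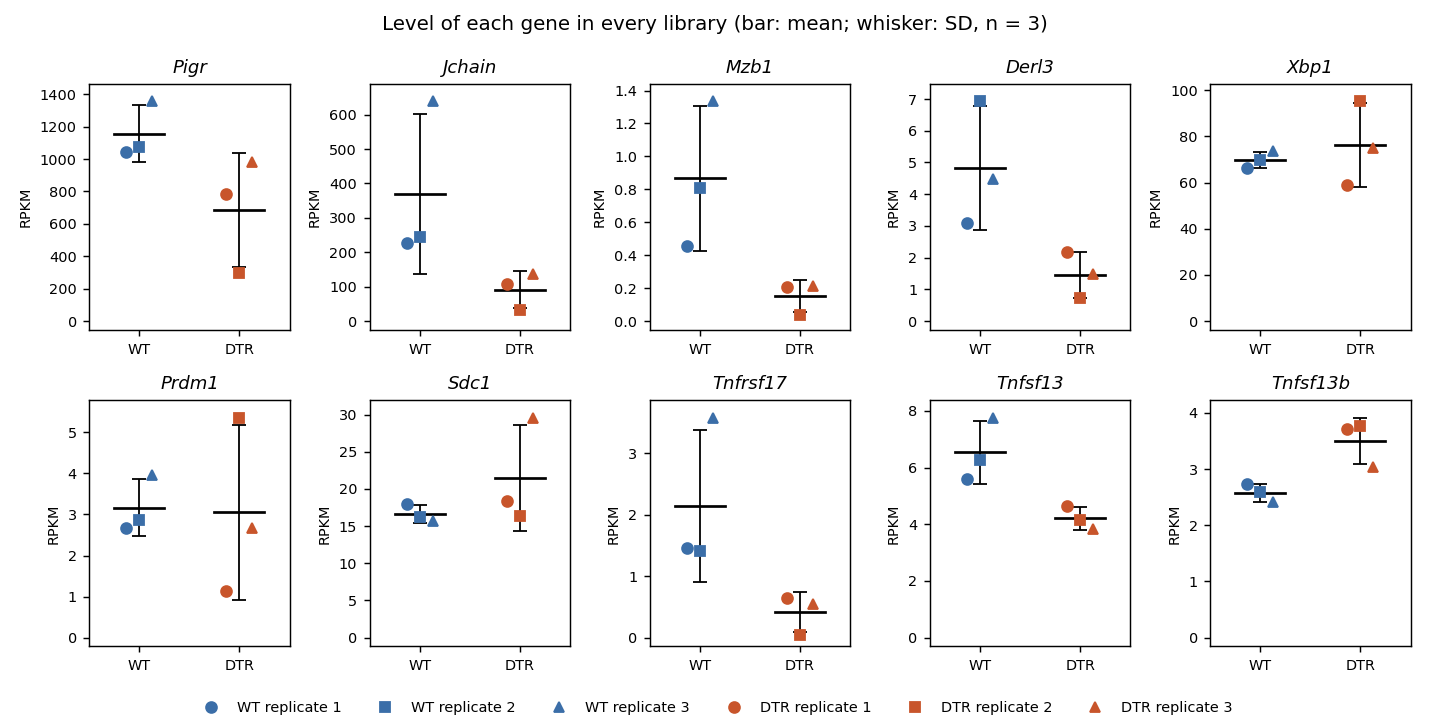
Level of each of the 10 genes in RPKM (read number scaled by the length of the gene and the library's total) in every library, with a marker shape for each replicate number, a bar for the group mean and whiskers for the SD (n = 3). Pigr, Jchain, Mzb1, Derl3, Tnfrsf17 and Tnfsf13 have all 3 DTR libraries below the WT libraries, and Tnfsf13b has all 3 above.

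**Figure D2:**
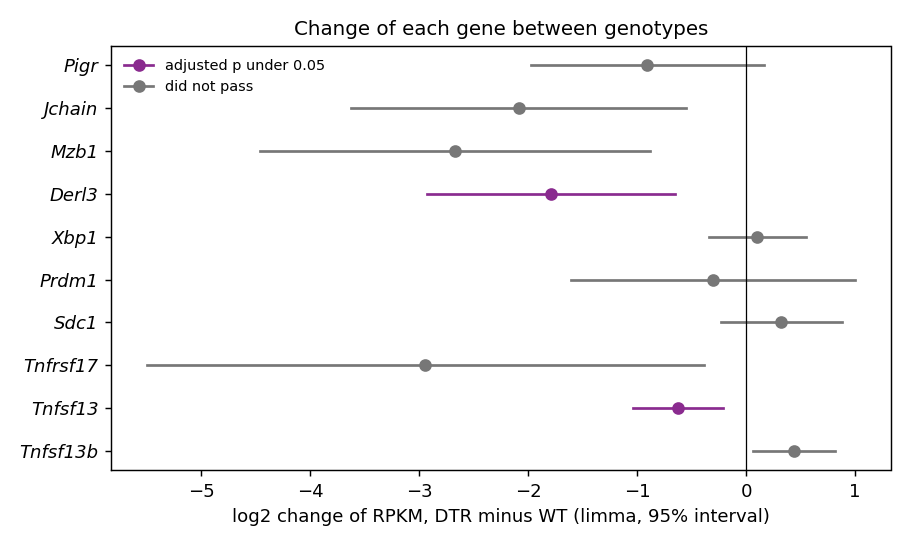
Log2 change of each gene, DTR minus WT, with its 95% interval from limma. Derl3 (-1.79) and Tnfsf13 (-0.63) have an adjusted p under 0.05 and are drawn in purple, and Tnfrsf17 (-2.95) has the widest interval.

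Promoter sequences of 3 of the genes with lower levels are printed because each holds ACGTG, the core letters of sites that XBP1 binds. They are RefSeq windows on GRCm38.p6, from 250 bases before to 50 bases after the annotated start, written 5′ to 3′ on the strand of the gene, in lower case with ACGTG or its reverse complement CACGT in capitals. The Derl3 window is chr10:75893148-75893447 (plus strand), the Jchain window is chr5:88527848-88528147 (minus strand) and the Pigr window is chr1:130826434-130826733 (plus strand).
Derl3: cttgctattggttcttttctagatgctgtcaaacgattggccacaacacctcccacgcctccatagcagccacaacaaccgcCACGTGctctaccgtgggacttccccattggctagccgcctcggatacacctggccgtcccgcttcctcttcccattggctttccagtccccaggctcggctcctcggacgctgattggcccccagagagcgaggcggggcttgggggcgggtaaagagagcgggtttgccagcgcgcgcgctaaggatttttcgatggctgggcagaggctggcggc
Jchain: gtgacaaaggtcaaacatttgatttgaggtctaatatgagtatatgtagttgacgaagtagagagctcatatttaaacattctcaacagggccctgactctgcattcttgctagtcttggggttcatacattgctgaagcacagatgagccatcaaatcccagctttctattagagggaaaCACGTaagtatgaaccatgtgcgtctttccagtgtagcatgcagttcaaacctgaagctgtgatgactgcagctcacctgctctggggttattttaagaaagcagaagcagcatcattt
Pigr: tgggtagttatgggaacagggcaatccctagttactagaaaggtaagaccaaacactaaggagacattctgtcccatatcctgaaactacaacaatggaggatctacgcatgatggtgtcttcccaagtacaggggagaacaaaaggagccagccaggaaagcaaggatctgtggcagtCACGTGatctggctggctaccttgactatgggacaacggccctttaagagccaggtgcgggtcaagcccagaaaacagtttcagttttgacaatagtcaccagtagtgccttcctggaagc
In Derl3 and Pigr the 2 matches overlap within 1 palindrome, CACGTG, whose first base lies at position -168 from the start in Derl3 and -71 in Pigr, and the single match of Jchain begins at -69. On either strand ACGTG occurs in 19.6% of the 32851 RefSeq promoter windows and in 3 of the 10 windows found for 9 of the 10 genes, Tnfsf13b having 2. CCAAT and CCACG, the parts of the ER stress element, occur in 37.4% and 32.8% of all windows, CCAAT in those of Derl3, Prdm1 and Sdc1, and CCACG in those of Derl3, Prdm1, Sdc1 and Tnfsf13; 1 of the CCACG matches in Derl3 overlaps the palindrome. CCAAT is matched 5 times in the Derl3 window. The unfolded protein element TGACGTGG, in 0.676% of all windows, is in none of the 10. The BLIMP1 core GAAAG occurs in 57.3% of all windows and in 6 of the 10, and the longer GAAAGT, which contains it, in 14.3% of all and in those of Tnfrsf17 and Tnfsf13b.

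Pigr (ENSMUSG00000026417.13, mm10 chromosome 1, 130826684 to 130852249, plus strand) encodes the epithelial receptor that carries polymeric IgA. Per length it was the most abundant of the 10 genes, at 1041, 1075 and 1357 RPKM in WT replicates 1, 2 and 3 and 785, 299 and 981 RPKM in DTR replicates 1, 2 and 3. The groups did not overlap, but DTR replicate 2 lay far below the other DTR libraries, which were close to the WT range. Mean levels were 1158 ± 173 and 688 ± 351 RPKM (SD, n = 3 each). The log2 change was -0.91 (SE 0.44, 95% interval -1.98 to 0.16) and did not pass (limma, Benjamini-Hochberg adjusted p = 0.178), nor did it under any of 19 other settings (adjusted p 0.127 to 0.435). Without DTR replicate 2 the log2 change was -0.39. Because whole tissue was sequenced, fewer cells of a type and less RNA per cell cannot be told apart for this or any other gene.

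Jchain (ENSMUSG00000067149.6, chromosome 5, 88519809 to 88527891, minus strand) encodes the peptide that joins IgA units. Its level was 228, 244 and 639 RPKM in WT replicates 1, 2 and 3 and 107, 31.9 and 136 RPKM in DTR replicates 1, 2 and 3. WT replicate 3 was the highest library and DTR replicate 2 the lowest, and the groups did not overlap. The mean was 4.05-fold lower in DTR (371 ± 233 against 91.5 ± 53.6 RPKM, SD, n = 3), a log2 change of -2.09 (SE 0.64, 95% interval -3.63 to -0.55). This missed the threshold (limma, Benjamini-Hochberg adjusted p = 0.0652), with adjusted p from 0.0448 to 0.197 over 19 other settings, 2 of which passed. Without WT replicate 3 and DTR replicate 2, the extremes of each group, the log2 change was -0.97 (limma adjusted p = 0.0789).

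Mzb1 and Derl3 work in the ER of secreting cells, Mzb1 as a co-chaperone that helps to assemble antibody and Derl3 in the removal of misfolded protein. Mzb1 (ENSMUSG00000024353.5, chromosome 18, 35647267 to 35649367, minus strand) was scarce, at 0.456, 0.807 and 1.34 RPKM in WT replicates 1, 2 and 3 and 0.204, 0.0401 and 0.212 RPKM in DTR replicates 1, 2 and 3. These levels rest on 41 to 123 reads in the WT libraries and on 16, 3 and 16 reads in the DTR libraries. The groups did not overlap, and the 3 reads of DTR replicate 2 allow 0.00827 to 0.117 RPKM (exact Poisson 95% interval, counting error only), below every other library. The mean was 5.70-fold lower in DTR (0.866 ± 0.443 against 0.152 ± 0.0971 RPKM, SD, n = 3). The log2 change of -2.67 (SE 0.74, 95% interval -4.46 to -0.88) just missed the threshold (limma, Benjamini-Hochberg adjusted p = 0.0521) and passed in 6 of 18 other settings (adjusted p 0.0342 to 0.182). Its size depended on the prior count, and was -1.91 and -0.67 at pseudocounts of 0.1 and 1, both of which passed (limma adjusted p = 0.0362 and 0.0422). Mzb1 overlaps a coding gene listed as SPATA24 on the same strand, and the assignment of reads in the overlap is not given in the sources used, which leaves its level uncertain.

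Derl3 (ENSMUSG00000009092.5, chromosome 10, 75893413 to 75895941, plus strand) fell in DTR. Its level was 3.08, 6.93 and 4.47 RPKM in WT replicates 1, 2 and 3 and 2.17, 0.717 and 1.48 RPKM in DTR replicates 1, 2 and 3. The groups did not overlap, and here WT replicate 2 rather than replicate 3 was the highest library. The mean was 3.32-fold lower in DTR (4.83 ± 1.95 against 1.46 ± 0.727 RPKM, SD, n = 3), with a log2 change of -1.79 (SE 0.47, 95% interval -2.93 to -0.65; limma, Benjamini-Hochberg adjusted p = 0.0465). The call ended when WT replicate 1, 2 or 3 was left out (limma adjusted p = 0.0947, 0.144 and 0.134) and when DTR replicate 2 or 3 was left out (0.0695 and 0.102), and it held in 8 of 19 other settings. The acinar genes, whose cells also transcribe Derl3, were highest in WT replicate 2 and lowest in DTR replicate 2, as Derl3 was. In DTR replicate 1 their mean log2 level (9.639) was above that of WT replicates 1 and 3 (8.955 and 8.947), whereas Derl3 was lower. With that mean level as a covariate the log2 change of Derl3 was -1.17 (limma adjusted p = 0.106). Under this covariate 411 of all tested genes passed, against 2845 without it. The part of pancreatic content in the level of Derl3 was not tested.

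**Figure D3:**
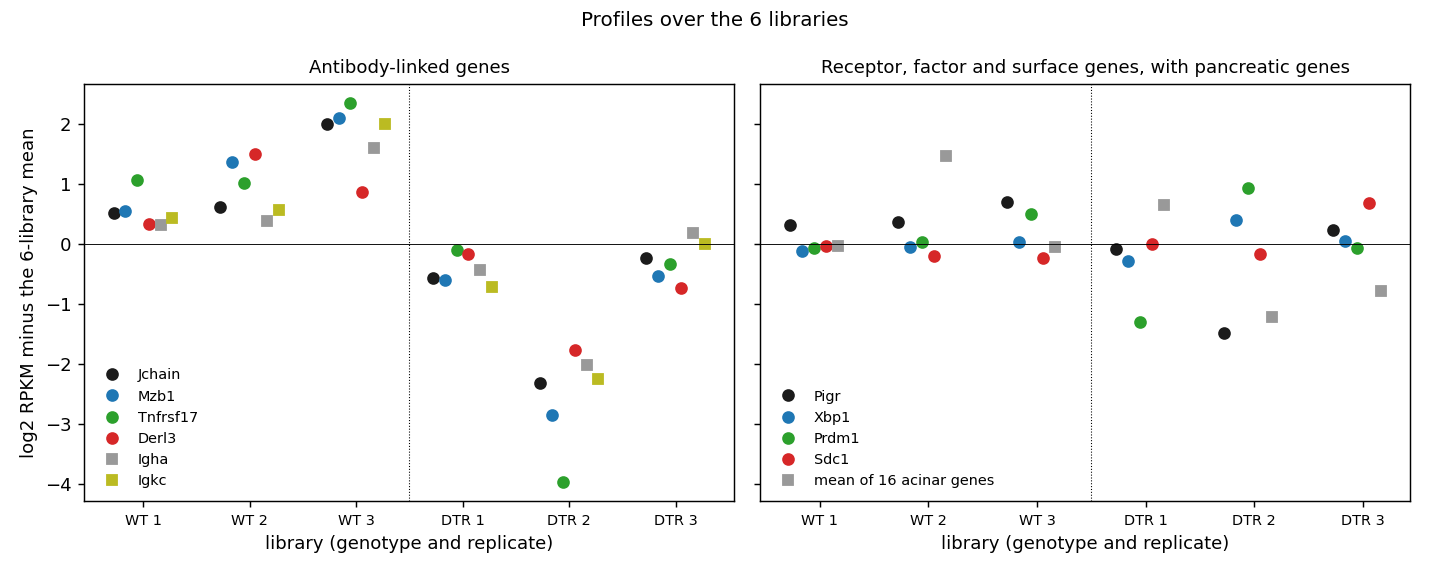
Log2 RPKM of each gene minus its mean over the 6 libraries, for the antibody-linked genes with Igha and Igkc (left) and for Pigr, Xbp1, Prdm1 and Sdc1 with the mean of 16 acinar marker genes (right). The antibody-linked genes are highest in WT replicate 3, apart from Derl3, and lowest in DTR replicate 2, whereas Prdm1 and Xbp1 are highest in DTR replicate 2.

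Xbp1 and Prdm1, the transcription factors, were not lower in DTR as a pair. Xbp1 (ENSMUSG00000020484.18, chromosome 11, 5520659 to 5525893, plus strand) stood at 66.4, 69.6 and 73.5 RPKM in WT replicates 1, 2 and 3 and at 59.1, 95.2 and 74.9 RPKM in DTR replicates 1, 2 and 3. The lowest and the highest library were both DTR, so the groups overlapped fully. The log2 change of 0.10 (SE 0.19, 95% interval -0.34 to 0.55) did not pass (limma, Benjamini-Hochberg adjusted p = 0.705), and its sign turned without DTR replicate 2 (-0.070). The table holds 1 value per gene, so the spliced Xbp1 transcript that encodes the active factor is not separated.

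Prdm1 (ENSMUSG00000038151.13, chromosome 10, 44437177 to 44528501, minus strand) had 2.68, 2.87 and 3.96 RPKM in WT replicates 1, 2 and 3 and 1.14, 5.35 and 2.67 RPKM in DTR replicates 1, 2 and 3. Again DTR held both the lowest and the highest library. The log2 change was -0.30 (SE 0.54, 95% interval -1.60 to 1.00; limma, Benjamini-Hochberg adjusted p = 0.702), and it was 0.28 without DTR replicate 1. DTR replicate 2, with the lowest Jchain of all libraries, had the highest Prdm1.

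Sdc1 (syndecan-1 or CD138, a proteoglycan of the plasma cell and epithelial surface; ENSMUSG00000020592.14, chromosome 12, 8771323 to 8793715, plus strand) was at 18.0, 16.2 and 15.6 RPKM in WT replicates 1, 2 and 3 and 18.4, 16.4 and 29.6 RPKM in DTR replicates 1, 2 and 3. DTR replicate 3 stood above the rest, while the other DTR libraries were level with the WT libraries. The log2 change of 0.32 (SE 0.23, 95% interval -0.24 to 0.88) did not pass (limma, Benjamini-Hochberg adjusted p = 0.335), and it was 0.06 without DTR replicate 3.

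Tnfrsf17 (BCMA, the receptor by which plasma cells bind APRIL and BAFF; ENSMUSG00000022496.5, chromosome 16, 11313812 to 11320074, plus strand) had 1.46, 1.40 and 3.58 RPKM in WT replicates 1, 2 and 3 and 0.647, 0.0399 and 0.553 RPKM in DTR replicates 1, 2 and 3. As for Jchain, WT replicate 3 was highest and DTR replicate 2 lowest, without overlap between the groups. DTR replicate 2 held 2 reads, which allow 0.00483 to 0.144 RPKM (exact Poisson 95% interval, counting error only). The mean was 5.20-fold lower in DTR (2.15 ± 1.24 against 0.413 ± 0.327 RPKM, SD, n = 3). The log2 change of -2.95 (SE 1.06, 95% interval -5.50 to -0.39) did not pass (limma, Benjamini-Hochberg adjusted p = 0.0943). Its size rested on the few reads of DTR replicate 2, without which it was -1.69, and on the prior count, since a pseudocount of 1 gave -1.11. That pseudocount was the 1 of 18 other settings in which it passed (limma adjusted p = 0.0444).

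The mean levels of the ligands of that receptor differed between the genotypes in opposite directions. Tnfsf13 (APRIL; ENSMUSG00000089669.7, chromosome 11, 69682846 to 69685784, minus strand) had 5.58, 6.28 and 7.76 RPKM in WT replicates 1, 2 and 3 and 4.64, 4.15 and 3.85 RPKM in DTR replicates 1, 2 and 3. The groups did not overlap and the DTR libraries lay close together. Tnfsf13 fell 1.55-fold (6.54 ± 1.11 against 4.21 ± 0.402 RPKM, SD, n = 3), a log2 change of -0.63 (SE 0.17, 95% interval -1.03 to -0.22), with a limma, Benjamini-Hochberg adjusted p of 0.0496 at the edge of the threshold. The call held in 6 of 19 other settings and ended without WT replicate 1, 2 or 3 (limma adjusted p = 0.105, 0.144 and 0.163) and without DTR replicate 2 or 3 (0.0796 and 0.116). Tnfsf13 shares its locus with Tnfsfm13, a coding gene on the same strand (limma adjusted p = 0.386), and with Tnfsf13os on the opposite strand (0.780). Neither the strand setting nor the handling of shared reads is given in the sources used, which leaves the level of Tnfsf13 uncertain.

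Tnfsf13b (BAFF; ENSMUSG00000031497.9, chromosome 8, 10006467 to 10039072, plus strand) had 2.73, 2.59 and 2.41 RPKM in WT replicates 1, 2 and 3 and 3.71, 3.77 and 3.04 RPKM in DTR replicates 1, 2 and 3. All DTR libraries were above all WT libraries. The mean was 1.36-fold higher in DTR (3.51 ± 0.407 against 2.58 ± 0.161 RPKM, SD, n = 3), a log2 change of 0.44 (SE 0.16, 95% interval 0.06 to 0.82) that did not pass (limma, Benjamini-Hochberg adjusted p = 0.0933), nor did it in any of 19 other settings. An unclassified gene, Gm44789, overlaps it on the opposite strand, so its level carries the same doubt as that of Tnfsf13.

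Ratios of genes within a library cancel the scaling to its depth, and they compare the genes with each other. The log2 ratio of Jchain to Igha, the IgA heavy chain constant region, was -1.74, -1.71 and -1.54 in the WT libraries, in the order of their replicate numbers, and -2.09, -2.25 and -2.35 in the DTR libraries. Jchain was thus lower relative to Igha in every DTR library, by -0.57 on the log2 scale (two-sided exact permutation p = 0.1, the smallest that 3 against 3 can give). The log2 ratio of Derl3 to Jchain differed by 0.30 and overlapped between the groups (exact permutation p = 0.7); it was -0.20 without WT replicate 3 and 0.81 without WT replicate 2. That of Mzb1 to Jchain differed by -0.58 without overlap (exact permutation p = 0.1), but the sign depended on the pseudocount, at 0.16 with 0.1 and 1.40 with 1.

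Epcam is an epithelial adhesion gene. Its level was 593 to 666 RPKM in the WT libraries and 601, 1181 and 759 RPKM in DTR replicates 1, 2 and 3. The log2 change of Epcam was 0.38 (limma, Benjamini-Hochberg adjusted p = 0.315). Set against Epcam, the log2 ratio of Pigr was 0.75, 0.86 and 1.03 in WT replicates 1, 2 and 3. In DTR replicates 1, 2 and 3 this ratio was 0.39, -1.98 and 0.37. The groups did not overlap and DTR replicate 2 set most of the difference of -1.29 (exact permutation p = 0.1), which was -0.50 without it. Against Vil1, an epithelial brush border gene that itself fell (log2 change -0.85, limma, Benjamini-Hochberg adjusted p = 0.0426), the difference for Pigr was -0.05 (exact permutation p = 0.9). Xbp1 to Epcam differed by -0.28 without overlap (exact permutation p = 0.1) and by 0.96 with Vil1 in place of Epcam. Sdc1 to Epcam differed by -0.06 with overlap (exact permutation p = 1), by 1.17 with Vil1, and by 0.38 without DTR replicate 2 and 0.0089 without WT replicate 1. The direction therefore turned on the reference gene for Xbp1 and Sdc1, for Sdc1 on single libraries too, and the size turned on the reference gene for Pigr.

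**Figure D4:**
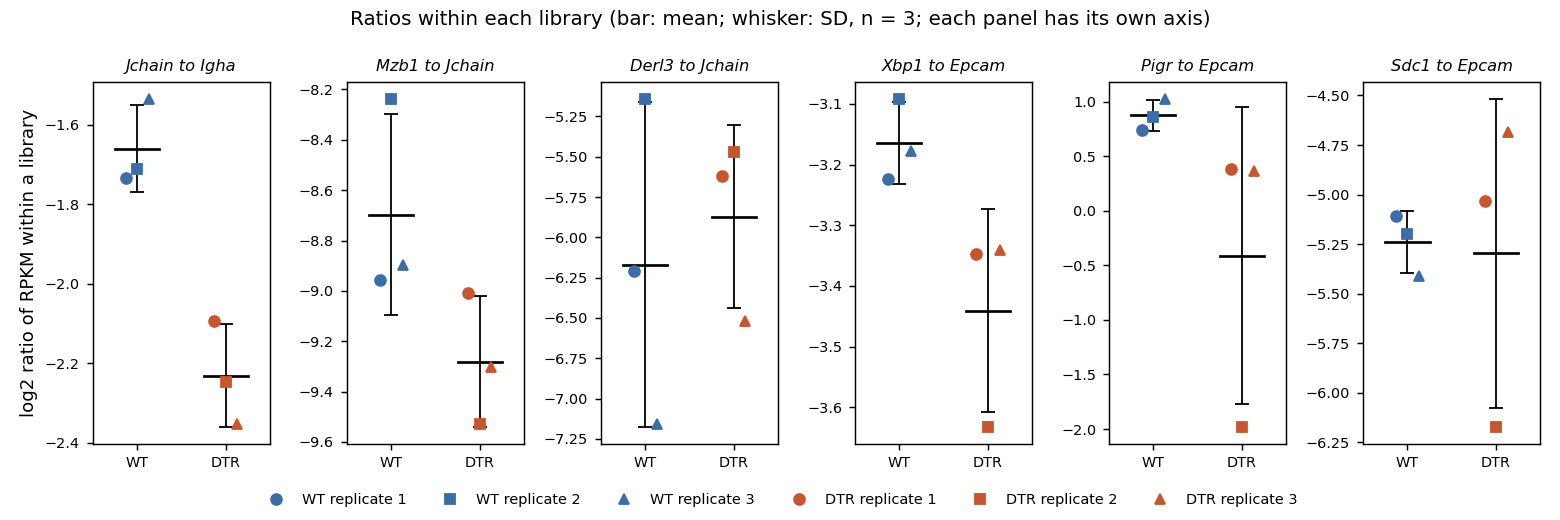
Log2 ratio of RPKM within each library for 6 pairs of genes, with a marker shape for each replicate number, a bar for the mean and whiskers for the SD (n = 3); each panel has its own axis. Jchain to Igha lies between -1.74 and -1.54 in WT and between -2.35 and -2.09 in DTR, and DTR replicate 2 stands apart in Pigr to Epcam at -1.98.

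The lists of other antibody and plasma cell transcripts also had medians below 0. The counts in these and all later lists stand beside 8.74% of all tested genes that fell and 9.54% that rose. Of 12 immunoglobulin constant region genes 10 were tested, and 2 fell, the light chain gene Iglc2 (log2 change -2.04, limma adjusted p = 0.0162) and the IgM heavy chain gene Ighm (-2.17, 0.0331), with 0 that rose and a median of -1.94 beside 0.03 for all tested genes. Igkc, the main light chain gene, had 2279, 2491 and 6781 RPKM in WT replicates 1, 2 and 3 and 1028, 356 and 1684 RPKM in DTR replicates 1, 2 and 3, without overlap (log2 change -1.99, limma adjusted p = 0.0819). Igha had 760, 801 and 1851 RPKM in the WT and 456, 152 and 694 RPKM in the DTR libraries (-1.52, limma adjusted p = 0.124). Both followed the order of Jchain in standing highest in WT replicate 3 and lowest in DTR replicate 2. Among 17 tested of 18 other plasma cell genes, 4 fell, namely Ccr10, a homing receptor of IgA cells (-2.07, limma adjusted p = 0.0118), Irf4, a factor of plasma cell differentiation (-2.11, 0.0243), Slamf7, a surface receptor (-2.01, 0.0227), and Cd38, an ectoenzyme (-0.62, 0.0185). Trp53inp1, a p53-induced stress gene, was the 1 that rose (1.39, limma adjusted p = 0.0390), and the median was -0.64.

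The median of B cell markers was lower still. Of 14, 7 were tested and 2 fell, Spib, a factor also of M cells (-4.18, limma adjusted p = 0.0141), and Cd22 (-2.88, 0.0475), with a median of -2.88. Their summed level was 9.80 to 55.0 RPKM in the WT and 2.72 to 8.52 RPKM in the DTR libraries, and that of the constant region genes was 3221 to 9661 against 556 to 2524 RPKM. Of 9 T cell markers 6 fell, with summed levels of 50.2 to 76.4 against 12.4 to 25.9 RPKM. Summed epithelial markers, with 2 that rose and 1 that fell of 10, were 4712 to 5191 against 4686 to 6450 RPKM. Of 15 tested acinar markers 0 passed with limma, 1 had an unadjusted p under 0.05, voom called 0, and the median was -0.75. Without DTR replicate 1, however, 2 acinar markers fell and 6 had an unadjusted limma p under 0.05. No acinar marker passed when any other single library was left out. In the fit without a filter 1 acinar marker fell. Without WT replicate 1, 2 or 3 the number that fell was 1, 0 and 0 of the constant region genes. It was 1, 0 and 0 of the B cell markers, and 0, 0 and 0 of the other plasma cell genes and of the T cell markers. None of the epithelial markers passed. In these fits 152, 157 and 207 of all 15563 tested genes passed. Leaving out DTR replicate 1, 2 or 3 gave 2, 1 and 0 of the constant region genes. For the other plasma cell genes the numbers that fell were 7, 5 and 3. They were 2, 1 and 1 for the B cell markers and 5, 5 and 4 for the T cell markers. Of the epithelial markers 2, 1 and 0 fell and 3, 3 and 2 rose. Among all tested genes 5605, 2405 and 1010 passed without DTR replicate 1, 2 and 3. Trp53inp1 passed in none of the 6 fits with 1 library left out.

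Marker lists of cells outside the lymphoid lineage also held genes that fell. Of all tested genes 8.74% fell and 9.54% rose, and a single passing gene in a short list is near these shares. Of 6 Paneth cell markers 5 fell, with summed levels of 2483 to 3888 RPKM in the WT and 538 to 735 RPKM in the DTR libraries, and 4 or 5 fell with any 1 library left out. Among macrophage and dendritic cell markers 4 of 10 fell, with summed levels of 232 to 265 against 173 to 184 RPKM. Of 8 enterocyte markers 3 fell, though their summed levels of 21110 to 25030 and 19150 to 35160 RPKM overlapped, and 2 of 4 red blood cell markers fell. Goblet cell markers had 1 that fell of 7, and M cell markers had 1 that fell, Spib, and 1 that rose of 6. Only 4 of the 8 germinal centre markers were tested. Of the tested markers of germinal centres, stroma and endothelium 0 passed with limma or voom. The numbers with an unadjusted limma p under 0.05 were 0, 1 and 0. Gcsam, a germinal centre marker below the filter, had 62 to 116 reads in the WT and 2 to 16 reads in the DTR libraries. It fell in the fit without a filter (log2 change -3.77, limma adjusted p = 0.0376). Without WT replicate 1, 2 or 3 the numbers that fell were 2, 1 and 1 for macrophages and dendritic cells, 1, 1 and 1 for enterocytes and 0, 0 and 0 for red blood cells, goblet cells and M cells. Without DTR replicate 2 or 3 the red blood cell list had 4 and 0 that fell, the enterocyte list 4 and 2, and the goblet cell list 0 and 0. The M cell list had 0 that rose without WT replicate 1, 2 or 3 and 2 without DTR replicate 1. Of all 15563 tested genes, 152, 157 and 207 passed without WT replicate 1, 2 and 3. For DTR replicates 1, 2 and 3 the numbers were 5605, 2405 and 1010. The part of any of these cell types, or of pancreatic content, in the results for the 10 genes was not tested.

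**Figure D5:**
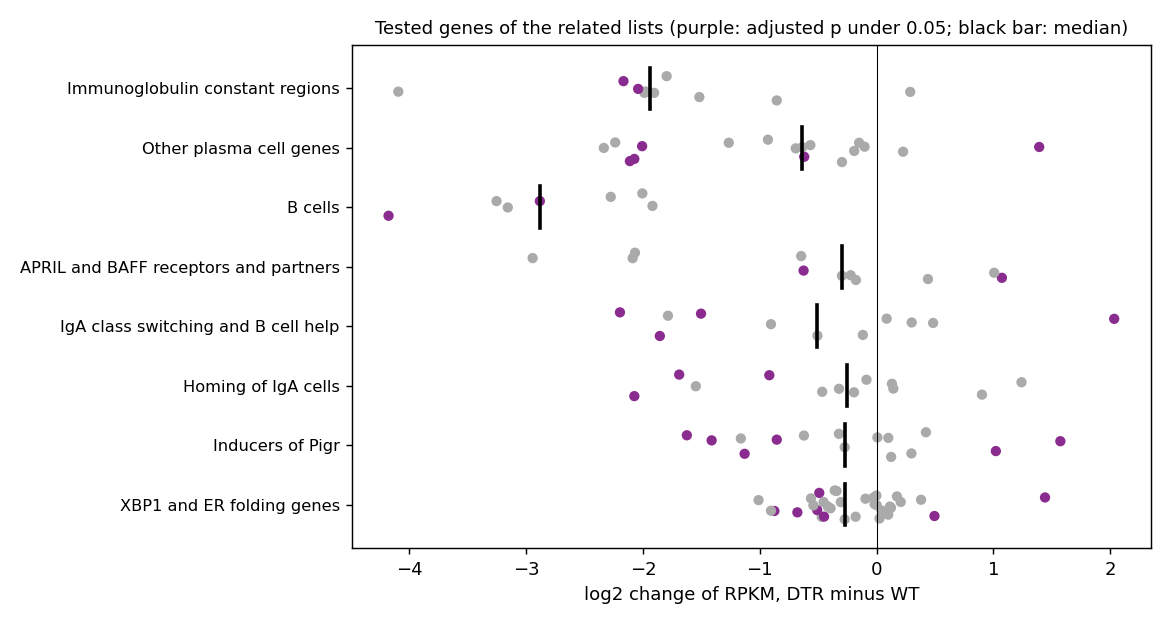
Log2 change, DTR minus WT, of every tested gene of the related lists and of the B cell markers, 1 point per gene, purple where the adjusted p was under 0.05, with a black bar at the median of the list. The medians of B cell markers (-2.88) and constant regions (-1.94) lie furthest below 0, and every list has genes on the lower side.

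The receptors and signalling partners of APRIL and BAFF form a list of 11 genes, 3 of them among the 10 described above, and all were tested. Traf6, a signalling adaptor, rose (log2 change 1.07, limma adjusted p = 0.04998), Tnfsf13 fell, and the median was -0.30. Tnfrsf13b (TACI, another receptor of APRIL and BAFF) was at 0.987, 2.43 and 2.90 RPKM in WT replicates 1, 2 and 3 and 0.787, 0.246 and 0.482 RPKM in DTR replicates 1, 2 and 3, without overlap, and just missed the threshold (-2.07, limma adjusted p = 0.0505). Mcl1, the survival gene downstream of BCMA in plasma cells and used by many other cells, did not overlap in the other direction, at 75.4 to 81.2 RPKM in the WT and 98.4 to 236 RPKM in the DTR libraries (1.01, limma adjusted p = 0.0633).

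Of 19 genes of IgA class switching and B cell help 11 were tested. Tgfbr2, the receptor for the switch factor TGF-beta and expressed by many cell types, rose from 3.97, 3.41 and 3.83 RPKM in WT replicates 1, 2 and 3 to 14.2, 12.7 and 19.8 RPKM in DTR replicates 1, 2 and 3. Its log2 change of 2.03 (SE 0.19, limma, Benjamini-Hochberg adjusted p = 0.00534) passed in all 19 other settings. Those that fell were Cd40, the receptor of T cell help (-1.86, limma adjusted p = 0.0218), Ltb, a lymphotoxin chain (-2.20, 0.0409), and Aldh1a1, an enzyme of retinoic acid synthesis that in intestine is also epithelial (-1.50, 0.0262). The list's median was -0.51.

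Of 14 genes that bring IgA cells to the gut 12 were tested, 3 fell and 0 rose, with a median of -0.26. They were Ccr10, the epithelial chemokine gene Ccl25, at 66.1 to 83.7 RPKM in the WT and 33.3 to 41.5 RPKM in the DTR libraries (-0.92, limma adjusted p = 0.0169), and the gut homing integrin gene Itgb7 (-1.69, 0.0365). Ccr9, the receptor of that chemokine and also a T cell gene, missed the threshold (-1.55, limma adjusted p = 0.0529). Without WT replicate 1, 2 or 3, no gene of these homing, switching and APRIL or BAFF lists passed except Tgfbr2. Without DTR replicate 2 or 3 the APRIL and BAFF list had 0 passing genes, while the switching and homing lists each had 2 or 3 genes that fell. Without DTR replicate 1 the APRIL and BAFF list had 2 that rose and 2 that fell, and the switching list had 2 that rose. Beside these counts, 152, 157 and 207 of all 15563 tested genes passed without WT replicate 1, 2 and 3. For DTR replicates 1, 2 and 3 the numbers were 5605, 2405 and 1010.

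The list of XBP1 targets and ER folding genes did not move in 1 direction. Of 34 genes 33 were tested, 5 fell and 2 rose, with a median of -0.27. Herpud1, a gene of ER-associated degradation, rose, with 53.5 to 66.2 RPKM in the WT libraries and 117 to 204 RPKM in the DTR libraries (log2 change 1.44, limma adjusted p = 0.0158), and Ssr1, a subunit of the translocon-associated complex, also rose (0.49, 0.0463). Creld2 (-0.88, limma adjusted p = 0.0277), the chaperone gene Hsp90b1 (-0.68, 0.0305), Derl1, a relative of Derl3 (-0.49, 0.0331), Syvn1 (-0.51, 0.0344) and Dnajc3 (-0.45, 0.0455) fell. These genes are expressed by all secreting cells, including goblet, Paneth and acinar cells. Without WT replicate 1, 2 or 3 none of the 33 passed, where 152, 157 and 207 of all 15563 tested genes did. Without DTR replicate 1, 2 or 3 the numbers that fell were 9, 3 and 0 and those that rose 3, 1 and 1. There 5605, 2405 and 1010 of all tested genes passed.

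Genes of signals that raise Pigr transcription were split. Of 20 genes 15 were tested, 4 fell and 2 rose, with a median of -0.27. Among those that fell, the interferon factor gene Irf1 had 52.5, 46.8 and 55.8 RPKM in WT replicates 1, 2 and 3 against 15.8, 24.1 and 12.3 RPKM in DTR replicates 1, 2 and 3, without overlap (log2 change -1.63, limma adjusted p = 0.0154). Stat6, which acts downstream of interleukin 4 (-0.86, limma adjusted p = 0.0353), and Il17rc, a chain of the interleukin 17 receptor (-1.13, 0.0426), fell as well. The receptor genes Il4ra (1.57, limma adjusted p = 0.0205) and Ifngr1 (1.02, 0.0309) rose. Irf1 was lowest in DTR replicate 3 and Pigr was lowest in DTR replicate 2. Whether the levels of these genes and of Pigr are related was not tested. Without WT replicate 1, 2 or 3 none of the 15 passed, where 152, 157 and 207 of all 15563 tested genes did. Without DTR replicate 1, 2 or 3 the numbers that fell were 4, 2 and 1 and those that rose 4, 1 and 0. There 5605, 2405 and 1010 of all tested genes passed.

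For Jchain, Pigr and Xbp1 the protein-coding genes with the closest profile were ranked by the root mean square difference of log2 RPKM, each centred on its mean over the 6 libraries, among 12302 candidates. For Jchain these were Tesc (0.209), Lck, a T cell kinase gene (0.342), and Ikzf3, a lymphoid factor gene (0.354), beside 0.120 for Igkc and 0.301 for Igha, which were not candidates. For Pigr they were Oxct1 (0.105), a gene of ketone body use, Abat (0.133) and Shank2 (0.135). For Xbp1 they were Sec24d (0.0245), a gene of vesicle export from the ER, Pdcd6 (0.0299) and Atg2a (0.0449). Jchain was closer to Igkc than to any candidate, and Pigr was further from Igkc (0.682) and Igha (0.448) than from the 3 genes closest to it. These are descriptions over 6 libraries that share depth and tissue composition.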

How the data were processed

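The deposited values are log2 RPKM made by the authors, whose tools, per the submitters' processing notes, were STAR, featureCounts of Subread, edgeR, FastQC and MultiQC, on mm10. Their versions, the annotation and whether counting used strand are not given in the sources used. The deposited normalization factor is a ratio that rescales each library's total. Reversing the log transform, with 0.25 as prior count, gave whole reads for 100% of values within 1e-06; these counts, recovered from the deposited values, served for read numbers and for limma's voom. The deposited tables of genes above given depths were not used. Columns were matched by title, since 1 sample's description (WT1) differs from its title (WT2).

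DTR was compared with WT for genes whose mean log2 RPKM exceeded -2, with limma 3.58.1 in R 4.3.3. The test was two-sided, with a variance trend and Benjamini-Hochberg adjustment over 15563 genes at 0.05. The fit was also run on simulated reads with the same small extra spread for every gene and no outlying library. That run cannot show how the fit behaves at the spread between the libraries used here. Changes are on the deposited log scale, where low genes depend on the prior count. RPKM means are of unlogged values. Positions (1-based) come from GENCODE M21, which matched 55394 of the 55487 gene IDs. Lists are described by counts and medians.

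The members and lists were chosen with earlier results of these data known. Named were all 10 members, Lgr5, up to 4 tested genes of each related list with the smallest p, and 3 genes of closest profile. Named besides were Syvn1, Dnajc3, Ssr1, Trp53inp1, Il17rc, Gcsam, Vil1, Epcam and the genes of sex-linked, overlapping and B cell sets. One gene that this rule picks is not reported here. No 2 replicates of a group looked like 1 library deposited again (chi-square per gene 77.2 to 447). The 19 other settings were pseudocounts of 0.1 and 1, a filter at 0 and none, quantile normalization, median centring, array weights, voom, no trend, a robust prior, a replicate block, each library left out, and, chosen after seeing the data, WT replicate 3 and DTR replicate 2 left out together and the mean acinar marker level as a covariate. Intervals on reads cover counting error only.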

Additional observations from a re-analysis of the deposited data

How the results depend on the processing

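Of 826 values for 44 named genes under other settings, 625 kept their direction and their side of the threshold, 167 kept the direction but no longer passed, 30 passed in addition and 4 reversed. The 4 reversals were Xbp1 at -0.070 without DTR replicate 2, -0.03 without WT replicate 3 and DTR replicate 2 and -0.070 with the acinar level as covariate, and Prdm1 at 0.28 without DTR replicate 1; neither gene passed in any setting, and leaving out 1 library gave -0.070 to 0.27 for Xbp1 and -0.84 to 0.28 for Prdm1. The 2845 genes that passed became 4862 with array weights, 162 without WT replicate 3 and DTR replicate 2, 411 with the acinar covariate, and 152 to 5605 when 1 library was left out. The 2 of the 10 genes that passed became 0 without a filter, without the variance trend, with array weights, without WT replicate 3 and DTR replicate 2 and with the acinar covariate, and 0 to 3 when 1 library was left out. Fewer libraries or an extra term leave fewer degrees of freedom; otherwise the cause was not tested.

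The replicate numbers are in the labels. Deviations from the group mean correlated at -0.011, -0.0024 and 0.165 between libraries of the same number. Between libraries of different numbers the correlations were -0.123 to 0.114. With 3 libraries per group these values cannot decide whether libraries of the same number share a batch. With a replicate block 1161 genes and 1 of the 10 genes, Jchain, passed. The ratio of Mzb1 to Jchain reversed to 0.16 and 1.40 with pseudocounts of 0.1 and 1. With Vil1 in place of Epcam the ratios of Xbp1 (0.96) and Sdc1 (1.17) reversed. With 1 library left out, Derl3 to Jchain ranged from -0.20 to 0.81 and Sdc1 to Epcam from -0.36 to 0.38. The 2 or 3 reads of Tnfrsf17 and Mzb1 in DTR replicate 2 limit what those libraries can show.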
